A study of Mus musculus with 20 samples.

Results

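Potassium channel genes were followed in RNA from mouse medial prefrontal cortex, 5 days after an injection into that region and again in adulthood. The genes were those whose symbol began with Kcn in both of the authors' comparison tables, apart from Kcnj8, Kcnj10 and Kcnj13. This gave 82 of the 20375 genes listed, of which 79 were protein-coding and 3 were noncoding transcripts named after a channel gene. By name, 39 were voltage-gated subunits (Kcna to Kcnh and Kcnq), 10 inward rectifiers (Kcnj), 10 two-pore channels (Kcnk) and 10 channels opened by calcium or sodium inside the cell (Kcnm, Kcnn, Kcnt). The other 13 symbols, such as the Kcnip, Kcns and Kcnv genes, are described beside them.

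The samples were 4 groups of 5: CDS and PBS at 5 days post injection (5 dpi, postnatal day 47), and CDS and PBS at 12 weeks of age (postnatal day 84, which is 6 weeks after injection). All were C57BL/6 mice that received CDS or PBS in the prefrontal cortex. The labels do not spell out CDS, and the series title names a microglia depletion model; microglia are the resident macrophages of the brain. Whether each sample was 1 animal or a pool is not given in the labels, so the q-values measure the spread between these samples, which may be technical. What the authors deposited is, per gene, the log2 ratio of CDS to PBS with its q-value (adjusted p). The tables hold no level per sample, so the spread within groups, the abundance of a channel and the identity of the tissue by its markers could not be examined, and the depth is unknown. Each log2 value and q of a single gene below is from the authors' deposited table of that time, and standard errors are implied by that pair of values. In bulk tissue, fewer cells of a type and less RNA per cell cannot be told apart.

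Potassium channels let potassium leave the cell, which holds the membrane near its resting voltage and ends each action potential. Voltage-gated channels open when a neuron fires and shape spikes and firing rate, inward rectifiers and two-pore channels set the resting state, and calcium-activated channels slow firing after a burst. Most are studied in neurons, but microglia, astrocytes, oligodendrocytes and blood vessels each have their own set. Two-pore channels hold microglia at rest, for example, and the calcium-activated channel KCa3.1, encoded by Kcnn4, serves migrating and dividing immune cells.

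At 5 dpi the largest differences were in a pair of genes with opposite signs. Kcnn4 was 4.99-fold higher in CDS than in PBS cortex, and Kcnh8 was 4.27-fold lower, by the authors' deposited table. Kcnk6, a two-pore channel known from macrophages, was 1.61-fold lower, and 6 further genes differed by 1.43-fold or less (authors' deposited table). In the authors' deposited table, 9 of the 82 genes passed a q of 0.05, 6 of them higher (Kcnn4, Kcne1l, Kcnn1, Kcnmb4, Kcnc4 and Kcna6) and 3 lower (Kcnh8, Kcnk6 and Kcnb2). That is 11% of the members, against 5.92% of all genes in the table, 2.75% higher and 3.18% lower. By group, 5 of 39 voltage-gated genes, 3 of 10 calcium- or sodium-activated genes, 1 of 10 two-pore genes and none of the 10 inward rectifiers passed. Among protein-coding genes alone, 11.4% of the members and 7.09% of all passed. The median log2 fold change over the 82 was -0.03, against -0.02 over all genes and 0.0021 over all protein-coding genes. Of the 82, 36 lay above 0, against 9162 of all 20375 genes. An unadjusted p under 0.05, recovered from q, was found for 26 members, or 31.7%. The shares were 19.1% of all genes and 20.3% of all protein-coding genes.

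**Figure D1:**
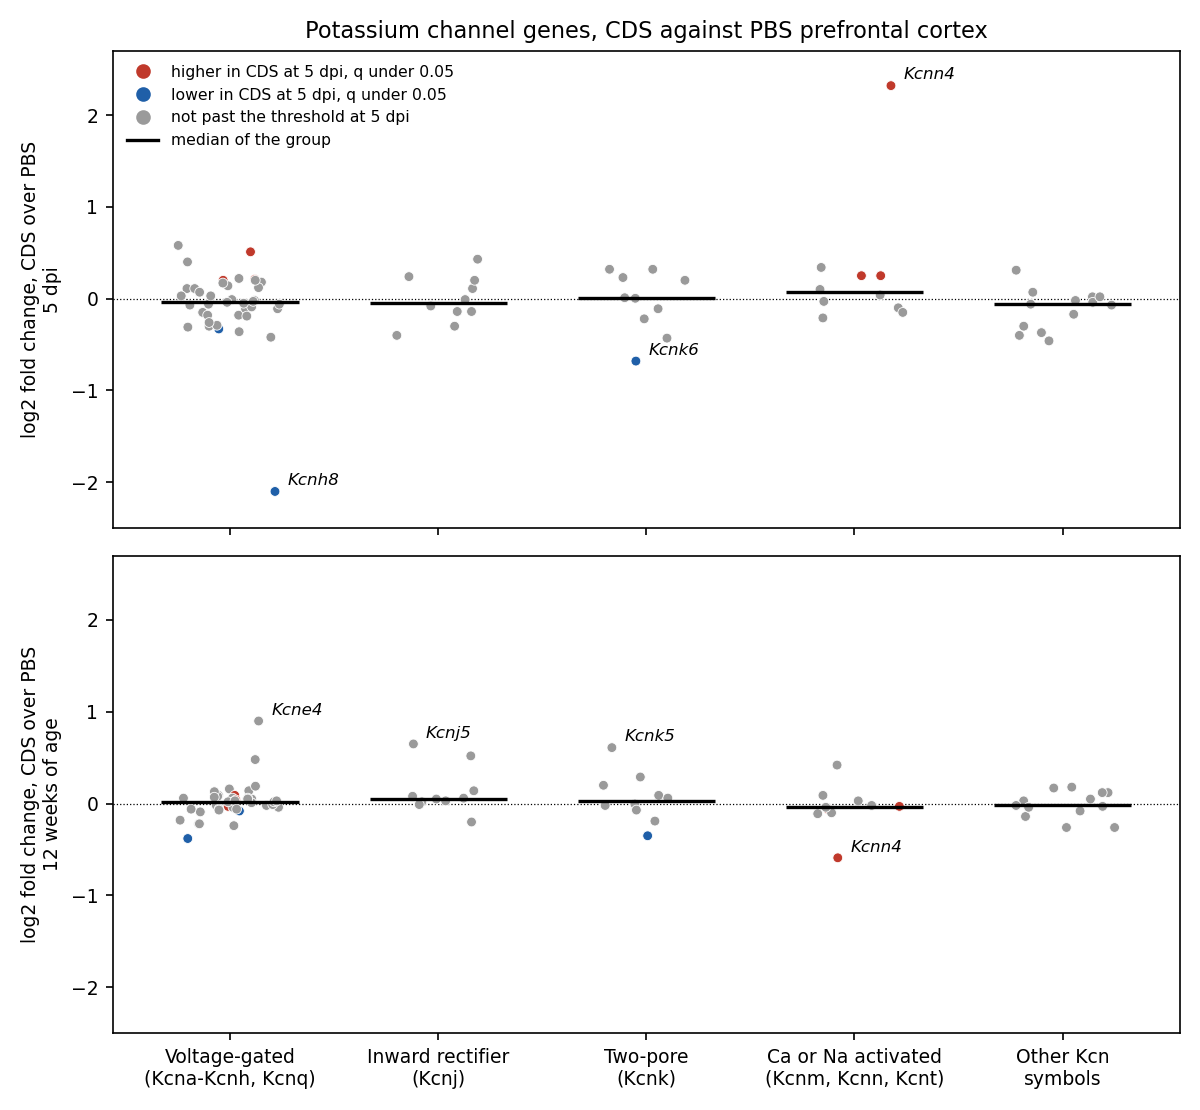
Each point is 1 Kcn gene; the vertical axis is the authors' log2 fold change of CDS over PBS at 5 dpi (upper panel) and at 12 weeks of age (lower panel), by channel group, with the group median as a black line. Colours mark genes past q 0.05 at 5 dpi in both panels. Kcnn4 at 2.32 and Kcnh8 at -2.10 stand far from the other genes at 5 dpi, and group medians lie between -0.06 and 0.07.

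Kcnn4 encodes the intermediate-conductance calcium-activated channel of T cells, macrophages and activated microglia. It lies on chromosome 7, 24370263 to 24386690, plus strand (GENCODE M21, GRCm38). The authors' deposited table gave it a log2 fold change of 2.32 at 5 dpi (implied SE 0.39), with a 95% interval of 1.56 to 3.08 and a q of 3.93e-07. Kcnh8 encodes a voltage-gated subunit of the ELK type, whose human counterpart is found in cortex mainly in oligodendrocytes. It lies on chromosome 17, 52602709 to 52979194, plus strand, and its value there was -2.10 (implied SE 0.40), with a 95% interval of -2.87 to -1.32 and a q of 1.74e-05 in the authors' deposited table. Both implied errors are several times the members' median of 0.12, so the size of either fold is loosely known.

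The 250 bases before the annotated start of these 2 genes are shown because they flank the most changed channel in each direction. They are RefSeq sequence of build GRCm38.p6, plus strand, chr7:24370013-24370262 for Kcnn4 and chr17:52602459-52602708 for Kcnh8, and capitals mark a motif match, of which the Kcnh8 window has none.
Kcnn4: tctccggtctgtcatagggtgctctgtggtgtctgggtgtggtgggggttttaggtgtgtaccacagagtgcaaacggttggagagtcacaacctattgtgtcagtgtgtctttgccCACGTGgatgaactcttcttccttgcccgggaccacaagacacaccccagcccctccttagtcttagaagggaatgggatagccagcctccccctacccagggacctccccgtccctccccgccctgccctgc
Kcnh8: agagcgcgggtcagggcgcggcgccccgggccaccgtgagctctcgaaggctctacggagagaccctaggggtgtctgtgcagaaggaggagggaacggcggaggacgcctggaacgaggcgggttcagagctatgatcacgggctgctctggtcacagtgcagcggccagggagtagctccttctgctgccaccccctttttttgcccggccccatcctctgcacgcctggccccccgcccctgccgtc
The motifs searched, on both strands and with overlaps between motifs allowed, were TGANTCA of AP-1, GAGGAAG of PU.1-type ETS factors, and the E-boxes CACGTG and CAGCTG. Kcnn4 held 1 match, CACGTG, at bases 133 to 128 before the start. Among all 32851 windows of that length in the table, CACGTG occurred in 6.02%, TGANTCA in 6.75%, GAGGAAG in 10.6% and CAGCTG in 13%. Among the 83 windows of the 59 members with one, the same motifs were found in 6, 4, 9 and 20. The Kcnh8 window also overlaps 1 annotated exon, of the antisense gene Gm27217. No binding was measured in these samples.

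Of the voltage-gated subunits, Kcna6 and Kcnc4 rose and Kcnb2 fell, beside Kcnh8. Kcna6 (Kv1.6), a neuronal delayed rectifier, rose by 0.20 (implied SE 0.05), and Kcnc4 (Kv3.4), a fast channel of axons and terminals, rose by 0.21 (implied SE 0.06), with q = 0.00265 and 0.02 in the authors' deposited table. Kcnb2 (Kv2.2), a slow neuronal delayed rectifier, fell by 0.33 (implied SE 0.09), with q = 0.0104 in the authors' deposited table. This call was lost when the trend of fold change with gene span and gene class was removed (-0.26, adjusted p = 0.068). These 3 changes are small, between 1.15-fold and 1.25-fold (authors' deposited table). Kcna6 lies on chromosome 6 (126708329 to 126740674), Kcnc4 on chromosome 3 (107438303 to 107459552), both on the minus strand, and Kcnb2 on chromosome 1 (15287254 to 15723750), on the plus strand.

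**Figure D2:**
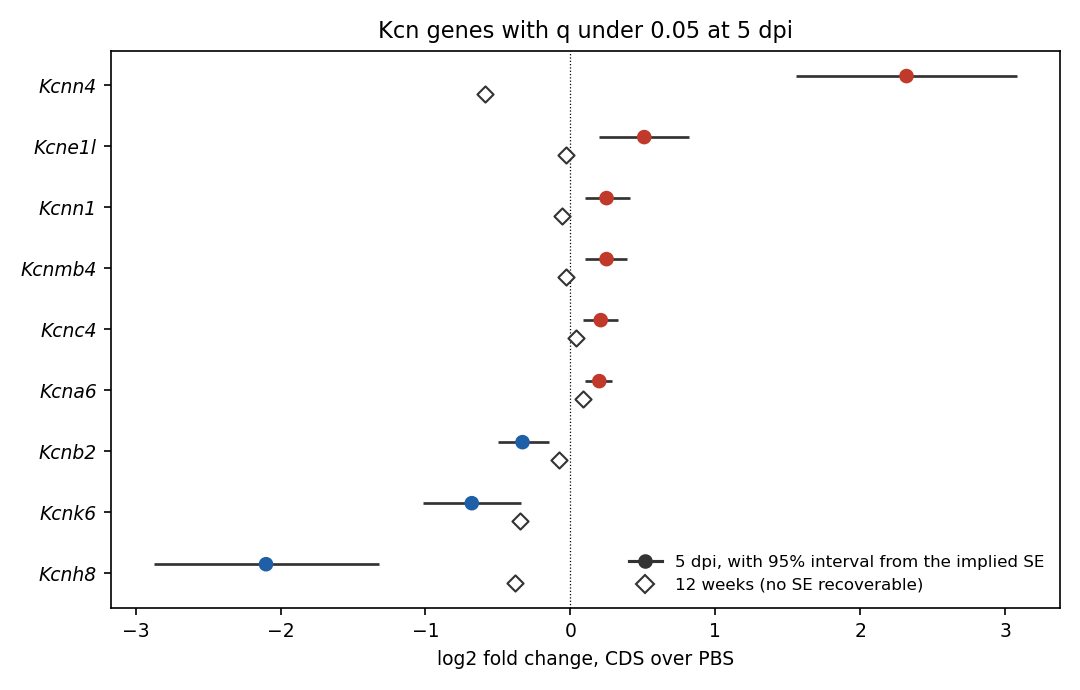
Log2 fold change of CDS over PBS (horizontal axis) for the 9 Kcn genes past q 0.05 at 5 dpi. Filled circles with lines give the 5 dpi value and its 95% interval from the implied standard error, and open diamonds the 12-week value. The 12-week values lie between -0.59 and 0.09. Kcnn4 changes sign, and so do Kcnmb4, Kcnn1 and Kcne1l, which lie close to 0 at 12 weeks (-0.03, -0.06 and -0.03).

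Within Kv1, the family of axonal and presynaptic low-threshold channels, Kcna6 alone of 6 pore genes passed. Kcna1 stood at 0.11, Kcna2 at -0.15, Kcna3 at 0.18, Kcna4 at -0.18 and Kcna5 at -0.31, and their q-values ran between 0.276 and 0.722 in the authors' deposited table. Kv3 channels let interneurons fire fast; beside Kcnc4, the authors' deposited table has Kcnc1 at -0.01 and Kcnc2 at 0.17, neither of which passed. All 3 Kv4 genes, which carry the A-type current of dendrites, lay below 0 without passing: Kcnd2 at -0.18, Kcnd3 at -0.11 and Kcnd1 at -0.11, with q = 0.0989, 0.678 and 0.842 in the authors' deposited table.

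The Kv7 genes other than Kcnq1 encode the M-current, a brake on repetitive firing, and none of the 5 Kv7 genes passed. Kcnq5 stood at -0.03 (95% interval -0.14 to 0.09) and Kcnq3 at -0.26 (-0.64 to 0.11) by the authors' deposited table. Kcnq1, by the authors' deposited table, stood at 0.07, with q = 0.953. Of the 8 EAG, ERG and ELK genes, Kcnh8 alone passed. Kcnh6, an ERG channel, stood at 0.40 with a q of 0.0682, while Kcnh3 and Kcnh4, the other ELK genes, stood at 0.03 and -0.09, with q = 0.927 and 0.836 in the authors' deposited table. Of the 3 ELK genes, Kcnh8 was the one with a large value.

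Accessory subunits alter the gating of pore subunits. Kcne1l (also named Kcne5), a single-pass partner of Kv7.1, rose by 0.51 (implied SE 0.16), with q = 0.0262 in the authors' deposited table. It no longer passed once the trends with span and gene class were taken out (0.43, adjusted p = 0.0903). Kcne4, a partner that damps several voltage-gated channels, stood at 0.58 and Kcne3 at -0.06 (the authors' deposited table, q = 0.177 and 0.956). The Kv1 beta subunits Kcnab1, Kcnab2 and Kcnab3 stood at 0.14, 0.11 and -0.02, and the 4 Kv4 partners Kcnip1 to Kcnip4 lay between -0.17 and 0.02; none of the 7 passed in the authors' deposited table. The 9 silent modifier genes (Kcnf1, Kcng1 to Kcng4, Kcns1 to Kcns3 and Kcnv1), which form no channel alone, lay between -0.42 and 0.22 (authors' deposited table). None of them passed, and Kcnv1, which is expressed by cortical excitatory neurons, had the smallest q of the 9 (-0.37, q = 0.126, the authors' deposited table).

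Inward rectifiers had no member past the threshold at 5 dpi, against 5.92% of all genes. Of the 10, 3 had an unadjusted p under 0.05, against 19.1% of all genes; with 10 genes, neither count sets the group apart. Kcnj9 and Kcnj6, subunits of the G-protein-gated channels opened by GABA-B and other receptors, stood at 0.20 and -0.40, with q = 0.106 and 0.132 in the authors' deposited table. Kcnj3, the third neuronal subunit of these channels, stood at -0.08 and Kcnj5 at 0.43 (the authors' deposited table, q = 0.577 and 0.631). Kcnj11, the pore of the ATP-sensitive channel of neurons, stood at 0.24, and the strong rectifiers Kcnj2, Kcnj4, Kcnj12 and Kcnj14 stood at -0.14, -0.01, 0.11 and -0.30 in the authors' deposited table. Subunits of the G-protein-gated channel lay on both sides of 0, with intervals of 0.05 to 0.34 for Kcnj9 and -0.71 to -0.08 for Kcnj6. Kcnj16, an astrocyte partner of Kir4.1, stood at -0.14 with an interval of -0.30 to 0.01 (authors' deposited table).

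Two-pore channels carry the background leak. Kcnk6 (TWIK-2; chromosome 7, 29221926 to 29232515, minus strand) fell by 0.68 (implied SE 0.17), with q = 0.00366 in the authors' deposited table, the single call among 10. Unadjusted p under 0.05 was found for 5 of them, against 19.1% of all genes. Kcnk12, a silent relative of THIK-1, stood at 0.32 and Kcnk3, the acid-sensitive TASK-1, at 0.20, while Kcnk13 stood at -0.43 and Kcnk10 (TREK-2) at -0.22, with q-values between 0.088 and 0.155 in the authors' deposited table. The mechanosensitive Kcnk4 (TRAAK) and Kcnk2 (TREK-1), and Kcnk1, Kcnk5 and Kcnk9, lay between -0.11 and 0.32 without passing (authors' deposited table).

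Calcium- and sodium-activated channels gave 3 rises and no fall among 10 genes, against 2.75% higher and 3.18% lower over all genes. Beside Kcnn4, the small-conductance channel Kcnn1 (SK1), which contributes to the pause after a spike, rose by 0.25 (implied SE 0.08), and Kcnmb4, the neuronal beta subunit of the large-conductance (BK) channel, rose by 0.25 (implied SE 0.07), with q = 0.027 and 0.0196 in the authors' deposited table. The other 7 genes of the group did not pass. The BK pore gene Kcnma1 stood at -0.21 (95% interval -0.44 to 0.02), the remaining SK genes Kcnn2 and Kcnn3 at -0.10 and -0.03, and the sodium-activated Kcnt1 and Kcnt2 at 0.10 and -0.15 in the authors' deposited table. The noncoding Kcnmb4os2 overlaps Kcnmb4 on the opposite strand and stood at 0.31 (q = 0.0765, the authors' deposited table). Use of strand in counting is not given in the sources used here, so reads of this pair cannot be told apart with certainty, and the same holds for Kcnn1 and A230052G05Rik and for Kcna6 and Gm26673. Kcnn1 lies on chromosome 8 (70842049 to 70863258), Kcnmb4 on chromosome 10 (116417861 to 116473878) and the accessory gene Kcne1l on chromosome X (142304752 to 142306294), all on the minus strand. Kcnb2 also contains the transcripts Gm37138 and Gm38116 on its own strand.

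Of the 73 genes that did not pass at 5 dpi, 53 had a 95% interval that lay wholly within 1.5-fold in either direction. These were 24 voltage-gated genes, 7 inward rectifiers, 7 two-pore genes, 6 calcium- or sodium-activated genes and members of the remaining set. With the implied errors, 64 of the 82 genes could have been called at 5 dpi had they differed by 1.5-fold. Loosely measured members included Kcnq1, Kcnj5, Kcnk5, Kcnmb1, Kcne3 and Kcnrg, with implied errors of 0.34 to 0.42. For these a 1.5-fold difference was not detectable.

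The channels were next set beside marker genes of their likely cell source, using sources known from general knowledge of mouse brain. Channels of microglia and other leukocytes did not share a direction. Kcnk6 was lower and Kcnn4 higher, while Kcnk13 (THIK-1), the main resting channel of ramified microglia, which opens downstream of P2ry12, stood at -0.43 and Kcna3 (Kv1.3), a channel of activated microglia and T cells, at 0.18, with q = 0.136 and 0.544 in the authors' deposited table. All 12 homeostatic microglia markers fell in the authors' deposited table, from -2.78 for Siglech to -1.17 for Olfml3, with P2ry12 at -2.70. The part of the microglia in the lower Kcnk6 was not tested. The interval of Kcnk13 was -0.78 to -0.09 and that of Kcnk6 -1.02 to -0.34, so both channels stood nearer 0 than every marker of that list. Kcnj2, of microglia and endothelium, had an interval of -0.35 to 0.07.

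**Figure D3:**
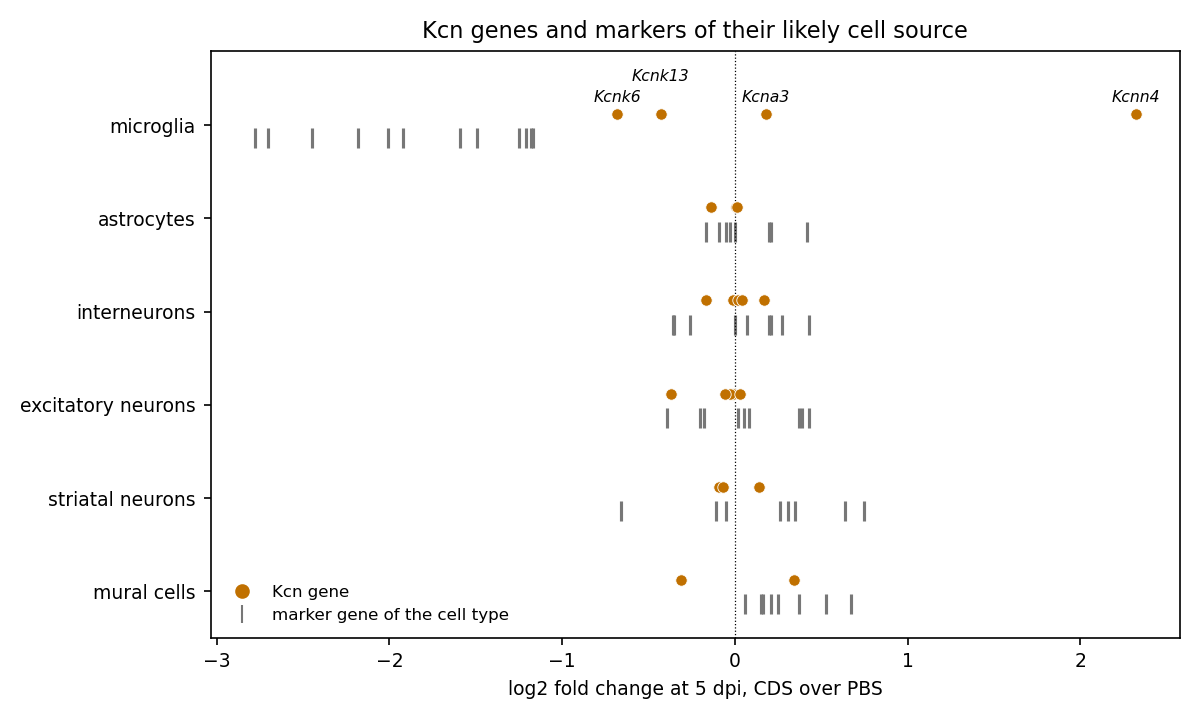
Log2 fold change at 5 dpi of CDS over PBS (horizontal axis) for Kcn genes (filled circles) and for marker genes (grey ticks) of the cell type named at the left. Microglia markers lie between -2.78 and -1.17, while the 4 channels of microglia and other leukocytes run between -0.68 and 2.32; channels and markers of the other 5 cell types lie mostly near 0.

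Other markers were higher beside Kcnn4. Of 5 measured monocyte, neutrophil and lymphocyte markers, Ccr2 and Itgal rose by 1.26 and 1.58, Ptprc fell, at -0.52, and S100a8 and S100a9 stood at -0.66 and -0.89 in the authors' deposited table. All 6 markers of dividing cells rose, by 0.45 to 1.83, and 7 of 8 reactive astrocyte markers rose, with a list median of 0.96 and Lcn2 not past the threshold at 1.23 in the authors' deposited table. The value of Kcnn4 was above that of every gene of these 3 lists. The part of any of these cell types in the rise of Kcnn4 was not tested.

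Beside the lower Kcnh8, oligodendrocyte precursor markers were lower and myelin genes were not. All 8 precursor markers fell, from -4.53 for Neu4 to -1.08 for Cspg4, with Gpr17, a marker of committed precursors, at -3.28 in the authors' deposited table. The 8 myelin genes lay between 0.38 and 0.74, none past the threshold (authors' deposited table). Kcnh8 has no listed cell source, so these lists were set beside it apart from the source lists. The part of the precursors or of myelinating cells in the lower Kcnh8 was not tested.

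Channels listed for other cell sources followed next. The 3 astrocyte genes Kcnj16, Kcnk1 and Kcnk2 lay between -0.14 and 0.01, and the 8 astrocyte markers between -0.17 and 0.42 (authors' deposited table). Of 5 interneuron genes (Kcnc1, Kcnc2, Kcns3, Kcnip1 and Kcnmb2) none passed, with a median of 0.02, and 2 of 9 interneuron markers passed, Npy higher at 0.43 and Gad1 lower at -0.35 in the authors' deposited table. Of 7 parvalbumin interneuron markers, Acan, a protein of the net around these cells, was lower at -1.35 and the others did not pass in the authors' deposited table. The part of interneurons in these channel values was not tested. Of 5 genes of forebrain excitatory neurons (Kcnv1, Kcnj4, Kcnq5, Kcnh3 and Kcnf1) none passed, with a median of -0.03, and of 9 excitatory neuron markers Neurod2 alone was higher (0.39, the authors' deposited table). Of 22 channels of neurons in general, Kcnc4, Kcnmb4 and Kcnn1 rose and none fell, with a median of -0.07. The 3 calls are 13.6% of that list, against 5.92% of all genes (2.75% higher, 3.18% lower). With 22 genes, the absence of a fall does not set the list apart. Kcna6, which rose, and Kcnb2, which fell, are neuronal too but were not on that list. The 3 genes of striatal neurons (Kcnip2, Kcnab1 and Kcnh4) lay between -0.09 and 0.14, and none of 8 striatal markers passed (median 0.28, authors' deposited table). Kcna5 and Kcnmb1, of vascular smooth muscle, stood at -0.31 and 0.34 without passing; 2 of 8 mural cell markers, Pdgfrb and Abcc9, were higher (0.37 and 0.67, the authors' deposited table). None of 7 endothelial markers (median -0.04) and none of 7 choroid plexus and ependyma markers (median -0.32) passed. Kcnq1, of choroid plexus and other epithelia, had an interval of -0.73 to 0.88. Kcne2, a channel subunit of the choroid plexus, is not among the 20375 genes listed.

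Genes that work with these channels were read from the same tables. Of 46 partner genes, 2 rose and none fell at 5 dpi, against 2.75% higher and 3.18% lower over all genes, so the partners' count is near that of the table. Their median was -0.0026. Abcc9, the sulfonylurea receptor of vascular ATP-sensitive channels and a mural cell marker, rose by 0.67 (implied SE 0.10), and Lgi3, a ligand of the Kv1-associated receptor ADAM22, rose by 0.29 (implied SE 0.09), with q = 3.55e-08 and 0.0232 in the authors' deposited table. Its relative Lgi1 stood at 0.0013 and Adam22 at 0.01 (authors' deposited table). The Kv4 partners Dpp6 and Dpp10 stood at -0.01 and -0.02, and the pacemaker gene Hcn2 at 0.09 in the authors' deposited table. All 6 sodium-potassium pump subunits lay between -0.20 and 0.11, and the 5 potassium-chloride transporters, with the neuronal Slc12a5 at 0.08, between -0.09 and 0.08 (authors' deposited table). None of the 46 passed at 12 weeks.

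At 12 weeks no potassium channel gene passed the threshold. The authors' deposited table, made with DESeq2, held 0 of 82 Kcn genes with a q under 0.05, against 0.191% of all genes, and the members' median was 0.02. An unadjusted p could be recovered for 3 members, each under 0.05, since the other 79 shared the highest q of 0.999997; how many of those had a p under 0.05 is unknown, as the tie allows any p of 0.0134 or more. Kcne4 was nearest to the threshold, at 0.90 (implied SE 0.24), with q = 0.0979 and unadjusted p = 0.000211 by the authors' deposited table, and it had stood at 0.58 at 5 dpi. Kcne4 has no listed cell source, and several marker lists lay mostly above 0 at both times. Of 5 fibroblast markers 3 passed at 5 dpi (list median 0.84). All 5 were above 0 at both times, with Lum past the threshold at 12 weeks (1.33, authors' deposited table). The 8 myelin genes were all above 0 too, with medians of 0.51 at 5 dpi and 0.44 at 12 weeks. Of 8 mural cell markers, 8 were above 0 at 5 dpi and 7 at 12 weeks. The same counts held for the 8 reactive astrocyte markers. Of 6 markers of dividing cells, 6 were above 0 at 5 dpi and 5 at 12 weeks. The interneuron, parvalbumin interneuron and striatal lists also lay mostly above 0 at both times, so the direction is not particular to a few cell types. The part of any of these cell types in the value of Kcne4 was not tested. Kcnj5, Kcnk5 and Kcnn4 also lay past 1.5-fold, at 0.65, 0.61 and -0.59 in the authors' deposited table, each with the tied q. Kcnj16 stood at -0.20 (p = 0.0107) and Kcnmb4os2 at -0.26 (p = 0.0124), with a q of 0.917 and 0.972 in the authors' deposited table.

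The 9 genes of 5 dpi lay nearer 0 at 12 weeks. They were chosen by their q at 5 dpi, and that choice alone favours smaller values in a second comparison. Kcnh8 stood at -0.38 and Kcnk6 at -0.35, on the same side as before, and Kcnn4 at -0.59 on the other side. The other 6 lay between -0.08 and 0.09 in the authors' deposited table. Of these, Kcnmb4, Kcnn1 and Kcne1l also changed sign, to -0.03, -0.06 and -0.03. Kcnk13, at -0.43 at 5 dpi, stood at 0.29 (authors' deposited table). The 12 microglia markers lay between -0.53 and 0.09 at 12 weeks, none past the threshold, and all 8 precursor markers passed, between -1.56 and -0.45 (authors' deposited table).

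The difference between times was tested for every gene of the table. Of the 82 genes, 2 passed (two-sided z test with Benjamini-Hochberg adjustment over all genes), against 0.432% of all genes. Kcnn4 differed by -2.91 on the log2 scale at 12 weeks minus 5 dpi (SE 0.55, adjusted p = 8.85e-05), with -0.59 at 12 weeks and 2.32 at 5 dpi in the authors' deposited tables. Kcnmb4os2 differed by -0.56 (SE 0.15, adjusted p = 0.0473), with -0.26 at 12 weeks and 0.31 at 5 dpi, from the authors' deposited table of each time. For Kcnh8 the difference was 1.71 (95% interval 0.62 to 2.81, adjusted p = 0.183). The 12-week errors of Kcnn4 and Kcnh8 were taken from 5 dpi, because the tied q hides their own. If their own errors are larger, the intervals are too narrow and the adjusted p-values too small. Most genes behind the 0.432% share this limit.

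**Figure D4:**
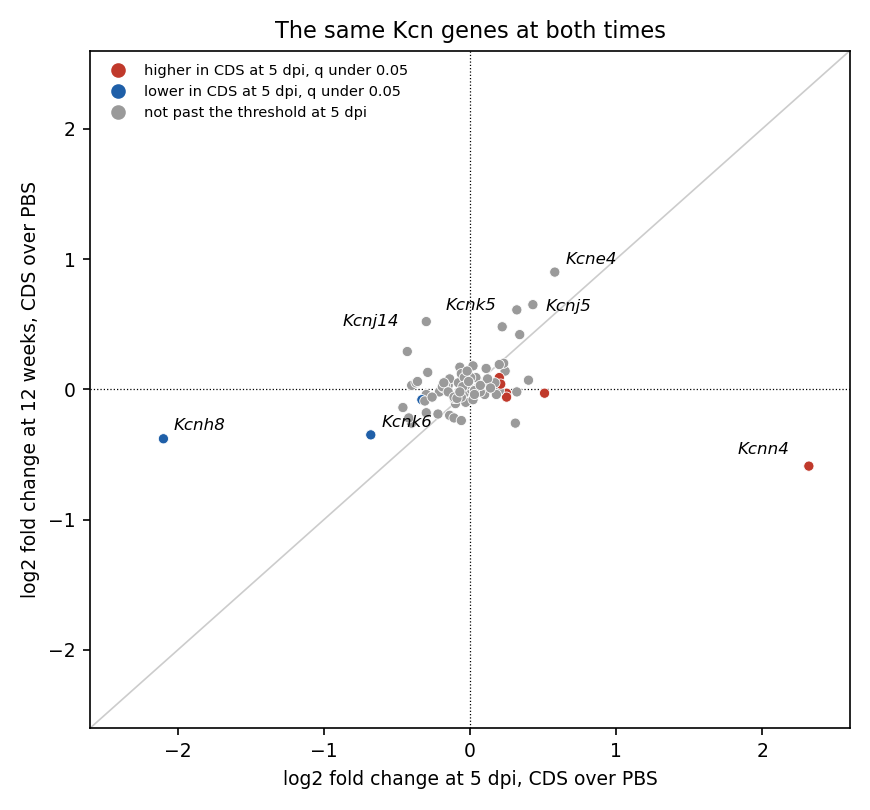
Each point is 1 of the 82 Kcn genes, with its log2 fold change of CDS over PBS at 5 dpi on the horizontal and at 12 weeks on the vertical axis; the grey line marks equal values. Kcnn4 lies alone at the lower right (2.32 at 5 dpi, -0.59 at 12 weeks), and Kcnh8 at the far left lies well above the line.

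Across the 82 genes, log2 fold changes at the 2 times had a Spearman rho of 0.34, against 0.24 over all genes. A sign was shared by 46 of 82, or 56.1%, near the 57.2% of all genes. The 2 comparisons share no samples, and genes are not independent replicates. Pearson's r was 0.16 and became 0.46 without Kcnn4 and Kcnh8, so its value depends on that pair.

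Potassium channel genes are often long, and length ran with the values at 5 dpi. Total RNA libraries hold unspliced transcripts, so the genomic span was set against the fold change. Over the 79 protein-coding members the Spearman rho between span and log2 fold change was -0.25 at 5 dpi and -0.12 at 12 weeks. Over all protein-coding genes it was -0.22 and -0.09. By group, rho at 5 dpi was -0.28 for voltage-gated genes, -0.38 for inward rectifiers, -0.09 for two-pore genes and -0.95 for calcium- or sodium-activated genes. Among protein-coding members up to their median span it was 0.17, and among those above it -0.35. Of the 10 calcium- or sodium-activated genes, the 3 that rose, Kcnn4, Kcnn1 and Kcnmb4, span 16.4, 21.2 and 56.0 kb and Kcnma1, at -0.21, spans 725.1 kb. Of the 39 protein-coding members above the median span of 42.2 kb, 1 rose and 2 fell, and of the other 40, 5 rose and 1 fell. Over all protein-coding genes, 118 above that span rose and 252 fell, and 430 below it rose and 296 fell, so the members leaned the same way as the whole table.

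**Figure D5:**
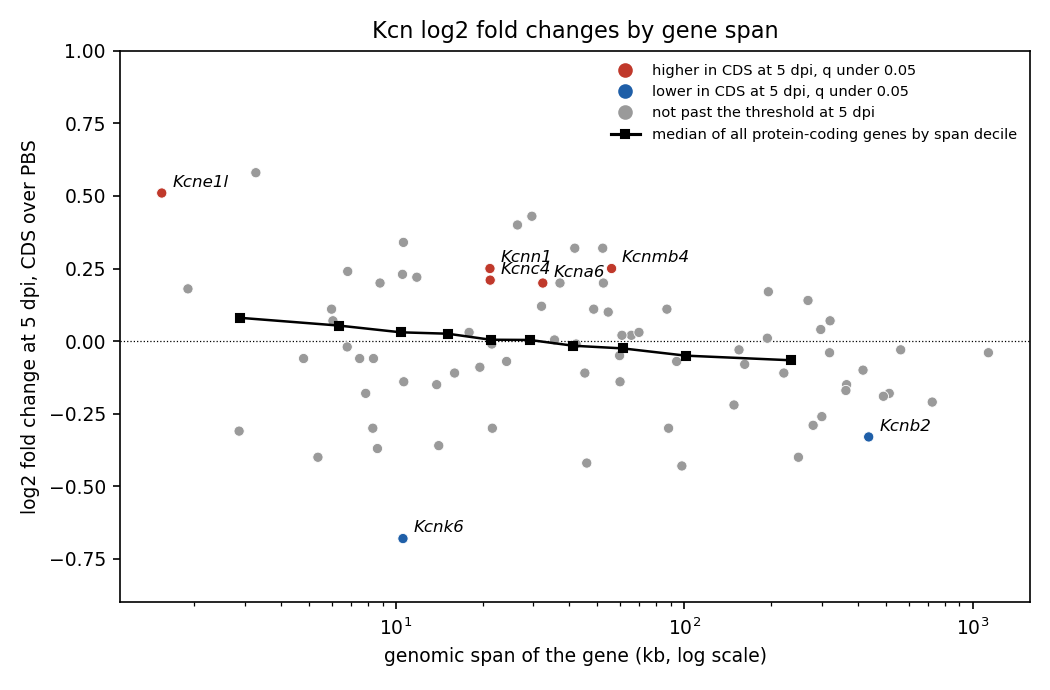
Log2 fold change of CDS over PBS at 5 dpi (vertical axis) against the genomic span in kb (horizontal axis, log scale) for the protein-coding Kcn genes within 1 log2 unit of 0, which leaves out Kcnn4 and Kcnh8. Black squares give the median of all protein-coding genes in each span decile, which runs between 0.08 for the shortest and -0.07 for the longest.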

How the data were processed

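Total RNA of frozen medial prefrontal cortex was made into stranded, ribosome-depleted libraries, per the labels' protocols. The submitters' processing notes name STAR, featureCounts and DESeq2 with GRCm38.p5; their versions, the filters and the strand setting are unknown here. For each time the authors deposited, for the same 20375 genes, the log2 ratio of CDS to PBS with its q-value. No column holds a sample, and the number of unused per-sample columns was 0. Depth is unknown, so no interval on counts is given.

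A gene was called where the deposited q-value was under 0.05. The q-values were taken as Benjamini-Hochberg adjusted over all genes, p was read back from q and the gene's rank, and a standard error as log2 fold change over z (Python 3.11.15, scipy 1.17.1). This assumes that the deposited log2 fold change is the estimate that was tested by z, not a shrunken one, which is unknown here. The implied errors, the intervals, the counts of detectable genes and the test between times rest on it. At 12 weeks 20103 genes shared the highest q. Their standard error was taken from 5 dpi, or the smallest the tie allows where larger, for the z test between times. The recovery was tested on simulated data. Coordinates and span came from GENCODE M21, and promoters from RefSeq, with a window for 59 of 82 members. One further gene with a blank symbol, Kcnab3os, is not a member.

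Members, cell sources, 15 marker lists (115 of 120 entries matched) and 46 of 48 partner genes were chosen with earlier results of these data known. Named were called members, the 3 smallest q per group at 5 dpi, the source lists, the 3 largest differences between times and called partners; Kcne4, Kcnh6 and others were named after their values were seen. Alternatives were other thresholds and adjustments, other member sets, and removal of the trend with span and class. Some members and partners are counted but not reported singly here.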

Additional observations from a re-analysis of the deposited data

Results flagged for a closer look

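Kcnn4 drew attention because its CDS over PBS difference passed the test between the 2 times. The log2 fold change at 12 weeks minus that at 5 dpi was -2.91 (95% interval -3.98 to -1.84, two-sided z test adjusted over all genes, adjusted p = 8.85e-05). The 12-week error of Kcnn4 was taken from 5 dpi. If its own error is larger, this interval is too narrow and the adjusted p too small. Kcnmb4os2, the noncoding transcript opposite Kcnmb4, differed between times too, by -0.56 (adjusted p = 0.0473). Kcnmb4 itself differed by -0.28 (adjusted p = 0.311).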

How the results depend on the processing

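At 5 dpi the 9 calls (6 higher, 3 lower) became 4 (2 higher) at a q of 0.01, 5 (2 higher) with a fold of at least 1.2 as well, and 2 (1 higher, 1 lower, Kcnn4 and Kcnh8) under Bonferroni adjustment. With the trend of span and class removed there were again 9, of which 7 were shared with the deposited calls; Kcnb2 and Kcne1l were lost and Kcnc2 and Kcnab2 were gained. At 12 weeks, a q of 0.1 gave 1 gene, Kcne4, which is higher. Among genes with a recovered 12-week error, 1 gene, Kcnmb4os2, differed between times, because Kcnn4 has no such error. The median of the symbols outside the named groups at 5 dpi was -0.30 with pore subunits only, which leaves Kcnu1 alone. The other 29 of 30 group medians moved by less than the group's median implied error. That is the error of single genes at 5 dpi, used for both times, and is a wide measure for a median. Inward rectifiers and two-pore genes are all pore subunits, so their medians could not move with pore subunits only. Of 73 values of single genes under alternatives, 18 lost the threshold. A q of 0.1 and the other member sets keep the same adjusted p at the same or a looser threshold. No call could be lost in those settings, so the 18 understate how easily calls are lost. Most alternatives reuse the deposited log2 value, so its direction could change only with the trend removed. No paired analysis was possible because the deposited tables hold no values per sample, and leaving out single replicates was not run for the same reason. Precision is limited by 5 samples a group and, at 12 weeks, by the tied q.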
